A study of Homo sapiens with 18 samples.

Results

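The 37 genes of the human mitochondrial genome were followed through the differentiation of stem cells to beta-like cells, in RNA-seq and in ribosome footprints. They are the rows of a gene count table whose symbols start with MT-, and all 37 were found among its 57808 rows. They comprise 13 mRNAs, 2 ribosomal RNAs (rRNAs) and 22 transfer RNAs (tRNAs). The cells were MEL1 INSGFP/W, a human embryonic stem cell line with a GFP reporter in the insulin gene, here undifferentiated (hPSC), at definitive endoderm (DE), and after differentiation to beta-like cells (sBC). The sBC were sorted into GFP+ and GFP- cells.

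Each of 9 groups held 2 libraries, 18 in all. RNA-seq was made from hPSC and DE with the genotype RPL22-FLAG, and from GFP+ sBC and GFP- sBC, whose labels name no FLAG allele. Total ribosome footprints (Ribo) were made from DE and hPSC with RPL22-FLAG. Footprints pulled down with an anti-FLAG antibody (IP-Ribo) were made from RPL22-FLAG hPSC, from RPL22-FLAG DE and from GFP+ sBC carrying an RPL22-FLAG lentivirus. In sBC the FLAG genotype therefore differs from that of the earlier stages, and its route of delivery and the stage cannot be told apart. The labels name no culture or passage for any library, so each p-value measures the spread between libraries, which may be technical. In bulk samples, fewer cells of a type and less RNA per cell cannot be told apart.

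Mitochondrial DNA is a small circular genome in the mitochondrial matrix, present in many copies per cell. Both of its strands are transcribed as long precursors, from which the mRNAs, rRNAs and tRNAs are cut out. All of its mRNAs encode membrane subunits of the respiratory chain and ATP synthase. Complex I has 7 of them (MT-ND1, MT-ND2, MT-ND3, MT-ND4, MT-ND4L, MT-ND5 and MT-ND6), complex III 1 (MT-CYB), complex IV 3 (MT-CO1, MT-CO2 and MT-CO3) and ATP synthase, complex V, 2 (MT-ATP6 and MT-ATP8). These mRNAs are translated inside the organelle by a mitochondrial ribosome built on MT-RNR1 and MT-RNR2. RPL22, the FLAG-tagged protein, belongs to the large subunit of the cytosolic ribosome.

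In the RefSeq annotation of GRCh38.p14, the members lie on chromosome MT between positions 577 (MT-TF) and 16023 (MT-TP), and the mRNAs span 207 bases (MT-ATP8) to 1812 bases (MT-ND5). MT-ND6, at 14149 to 14673, is the only mRNA annotated on the strand opposite to the others, together with 8 tRNAs. MT-ATP8 and MT-ATP6 share 46 bases, MT-ND4L and MT-ND4 share 7, and reads over these stretches can be assigned to either gene. The strandedness of counting is not given in the sources used here, so reads of MT-ND6 and of the precursor opposite to it cannot be told apart. The table also lists 404 nuclear copies of mitochondrial genes, which took 0.00786% to 0.87% of the counts of copies and mitochondrial genes together. The one with the most counts in every RNA library was MTATP6P1, with 5.74% to 10.1% of the count of MT-ATP6 there.

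Libraries held 6.61 to 92.53 M counts. The source and cell line fields of every sample name undifferentiated cells, so the stage rests on the cell type field alone, and stage markers followed that field. The 6 hPSC markers summed to 6470 and 6740 CPM (counts scaled to a common library total) in hPSC RNA, and the 7 DE markers to 3250 and 3440 CPM in DE RNA. The 7 beta cell markers summed to 23700 and 29200 CPM in GFP+ sBC RNA and to 28300 and 18500 CPM in GFP- sBC RNA, most of it CHGA, a secretory granule protein of endocrine cells in general. INS, the insulin gene that carries the reporter, had 5150 and 5870 CPM in GFP+ sBC, against 1960 and 1220 CPM in GFP- sBC. SLC30A8, G6PC2 and IAPP also lay higher in both GFP+ libraries, PDX1 was nearly level (111 and 107 CPM, against 103 CPM in both GFP- libraries), CHGA overlapped and NKX6-1 lay lower. The 4 markers of other islet endocrine cells summed to 37100 and 25800 CPM in GFP+ sBC RNA and 19500 and 13400 CPM in GFP- sBC RNA. Most of it was GCG, the glucagon gene, which had 36000 and 24500 CPM in GFP+ sBC RNA, far above INS. In IP-Ribo of GFP+ sBC, GCG had 42200 and 27900 CPM and INS had 2970 and 2800 CPM. The 4 duct and progenitor markers summed to 215 and 363 CPM in GFP+ sBC and 1630 and 1640 CPM in GFP- sBC. In the first DE Ribo library 1 noncoding gene (ENSG00000261889) took 25.1% of counts, and in GFP+ sBC IP-Ribo another (ENSG00000270103) took 19.8% and 17.2%. The first GFP- sBC RNA library stands apart in the mitochondrial genes themselves, and counts from fits that hold it are also given without it.

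The 3 RNA classes were captured very differently by the assays. In RNA-seq the mRNAs made up 99.2% to 100% of all mitochondrially encoded counts, whereas in footprints the rRNAs made up 93.4% to 99.8%. No tRNA had a count in any of the 8 RNA libraries, which allows a share of at most 3.24e-06% to 1.1e-05% of a library (3 counts). Of 1393 nuclear features of 80 bases or fewer, 1 (0.0718%) had a count in RNA-seq and 356 (25.6%) had one in footprints. The tRNA rows, of 59 to 75 bases, thus fall in a length class that RNA-seq of these cells hardly counted.

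The summed mRNAs took 0.727% and 0.876% of counts in hPSC RNA, 0.644% and 0.485% in DE RNA, and 5.33% and 4.15% in GFP+ sBC RNA. GFP+ sBC lay above both earlier stages in each library. In GFP- sBC RNA the share was 0.417% in the first library and 4.33% in the second, so that the first lay below all hPSC and DE libraries and the second between the GFP+ libraries. Group means were 0.801% ± 0.105 in hPSC, 0.565% ± 0.112 in DE, 4.74% ± 0.834 in GFP+ sBC and 2.37% ± 2.77 in GFP- sBC (SD, n = 2 each). With 2 libraries against 2, an exact two-sided permutation test cannot give a p below 0.333, so these shares carry no test.

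In total footprints the mRNAs took 0.0125% and 0.0175% of counts in DE and 0.013% and 0.0158% in hPSC. In FLAG footprints they took 0.00154% and 0.00116% in hPSC, 0.00322% and 0.00266% in DE, and 0.0059% and 0.00563% in GFP+ sBC. The FLAG values rest on few reads, from 213 to 529 counts per library over all 13 mRNAs. The 95% Wilson interval of the lowest share ran from 0.00103% to 0.00131%, and such intervals cover counting error only.

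The rRNAs took 0.000224% to 0.0198% of counts in RNA-seq, for which rRNA had been depleted with RNase H. In total footprints they took 0.829% and 1.87% in DE and 3.79% and 3.56% in hPSC. In FLAG footprints they took 0.314% and 0.192% in hPSC, 0.228% and 0.282% in DE, and 4.07% and 3.98% in GFP+ sBC. The FLAG libraries of GFP+ sBC thus lay above those of both other stages by the widest margin of any class. Protein-coding genes took only 54.6% and 62.8% of counts in those libraries, against 84.1% to 90.4% in the other FLAG libraries, and the part of this in the rRNA share was not tested. The tRNAs took 0.0466% and 0.046% of total footprints in DE and 0.0218% and 0.0244% in hPSC.

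**Figure D1:**
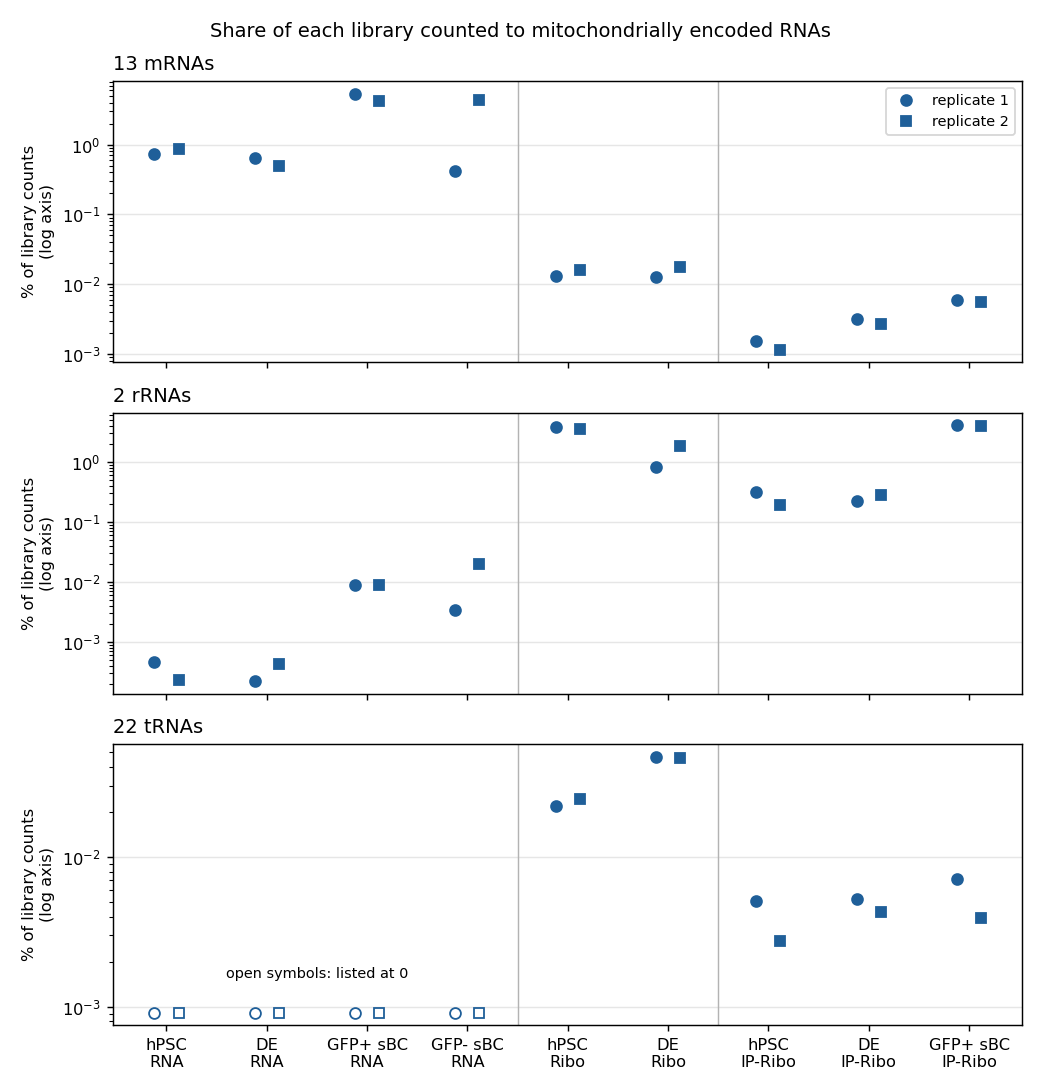
Percent of each library's counts (log axis) in the 13 mRNAs, 2 rRNAs and 22 tRNAs of the mitochondrial genome, 1 symbol per library, with open symbols for a class listed at 0. The mRNA share of GFP+ sBC RNA, at 5.33% and 4.15%, is above that of hPSC and DE RNA, and tRNAs are at 0 in all 8 RNA libraries.

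The 13 mRNAs differed widely in level. Per kilobase of gene, the highest levels in hPSC RNA were those of the complex IV mRNAs, with 1770 and 2050 CPM per kilobase for MT-CO3, 1310 and 1610 for MT-CO1 and 1030 and 1280 for MT-CO2. MT-ND4 followed with 928 and 1090 CPM per kilobase, overlapping MT-CO2. Levels per kilobase then descended through MT-ATP6 (662 and 748), MT-CYB (396 and 472), MT-ND1 (378 and 484) and MT-ND4L (312 and 391), with overlap between the last 3 neighbours in turn. At the low end stood MT-ND2 (221 and 290), MT-ATP8 (223 and 265), MT-ND5 (127 and 158), MT-ND3 (38.2 and 48.7) and MT-ND6 (12.6 and 14.5), of which the first 2 overlapped.

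In GFP+ sBC the order per kilobase was different in its upper part. MT-CO1 had 8960 and 5030 CPM per kilobase, MT-ND2 had 5130 and 6840, MT-ND4 had 5320 and 4920, MT-CO3 had 5730 and 3350, and MT-CO2 had 5540 and 4160. These 5 overlapped between libraries and were not separable in order. MT-ND6 remained the lowest, at 98 and 27.4 CPM per kilobase, below MT-ND3 at 1260 and 1200.

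**Figure D2:**
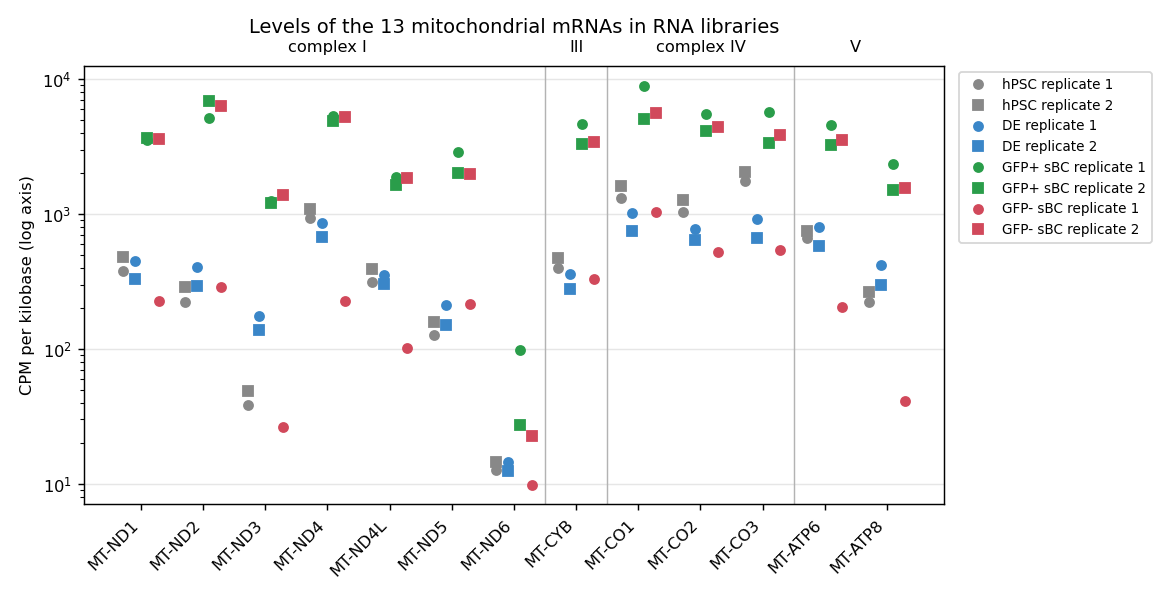
CPM per kilobase (log axis) of the 13 mitochondrially encoded mRNAs in the 8 RNA libraries, circles for the first and squares for the second library of a group. MT-ND6 is lowest throughout, and the first GFP- sBC library lies far below the second for nearly every gene.

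DE and hPSC differed in the makeup of their mitochondrial mRNAs. In RNA, 1 of the 13 mRNAs was higher in DE (MT-ND3, a core membrane subunit of complex I) and 1 was lower (MT-CO3, a core subunit of complex IV). In this comparison 75.6% of all 20634 genes tested were called, 38.7% higher and 36.8% lower, so 2 of 13 is a far smaller share than the background. The median log2 fold change of the 13 was -0.03, beside 0.01 for all genes.

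MT-ND3 had 60.8 and 47.8 CPM in DE, against 13.2 and 16.8 CPM in hPSC. The groups did not overlap, and the log2 fold change was 1.92 ± 0.21 (SE; adjusted p = 0.00288, edgeR quasi-likelihood F test with Benjamini-Hochberg adjustment over all genes, as for all adjusted p-values here). MT-CO3 had 723 and 517 CPM in DE, against 1390 and 1610 CPM in hPSC, a log2 fold change of -1.20 ± 0.24 (adjusted p = 0.0288). The other complex IV mRNAs had negative values that missed the threshold, with -0.66 ± 0.24 for MT-CO1 (adjusted p = 0.104) and -0.64 ± 0.18 for MT-CO2 (adjusted p = 0.0508). MT-CO1, the catalytic subunit of cytochrome c oxidase, had 1560 and 1150 CPM in DE, against 2020 and 2480 CPM in hPSC. MT-ND6 stayed at 7.58 and 6.55 CPM in DE, against 6.63 and 7.61 CPM in hPSC (0.06 ± 0.11 on the log2 scale), with complete overlap. MT-RNR2, with only 1.27 to 3.33 CPM in these libraries, had a log2 fold change of -0.17 ± 0.64. In a fit over all 8 RNA libraries no mRNA passed, and leaving out any 1 of the 4 libraries gave 5 to 7 calls, so the number called depends on how the spread is estimated.

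The makeup of the mRNA pool shows the same shift without any scaling between libraries. Complex IV mRNAs made up 43.7% and 43.4% of the counts of the 13 in DE, against 56.5% and 56.7% in hPSC. Complex I mRNAs made up 40.1% and 40.7% in DE, against 30.4% and 30.7% in hPSC. Replicates differed by less than 1 percentage point in either stage, and the groups were far apart. Computed per kilobase, complex IV averaged 40.1% in DE and 55.5% in hPSC, and complex I averaged 36.9% in DE and 27.5% in hPSC. In GFP+ sBC RNA complex IV held 41.5% and 31.9% and complex I 41.9% and 52.9%, with a wider gap between replicates than between DE and GFP+ sBC. In GFP- sBC RNA complex IV held 57.2% in the first library and 34.0% in the second. In this share the first lay beside hPSC and the second between the GFP+ sBC libraries.

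MT-ND6 made up 0.0275% to 0.135% of the mRNA counts in RNA-seq. In total footprints it made up 26.2% and 8.83% in DE and 4.82% and 3.86% in hPSC. In FLAG footprints its share was 2.52% and 7.06% in hPSC, 6.1% and 2.08% in DE, and 10.4% and 19.6% in GFP+ sBC. Its share of the pool was thus above its share in RNA in every footprint library. MT-CO1 was the largest single mRNA of total footprints, with 30.3% and 42.2% of the 13 in DE and 44.9% and 40.4% in hPSC.

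**Figure D3:**
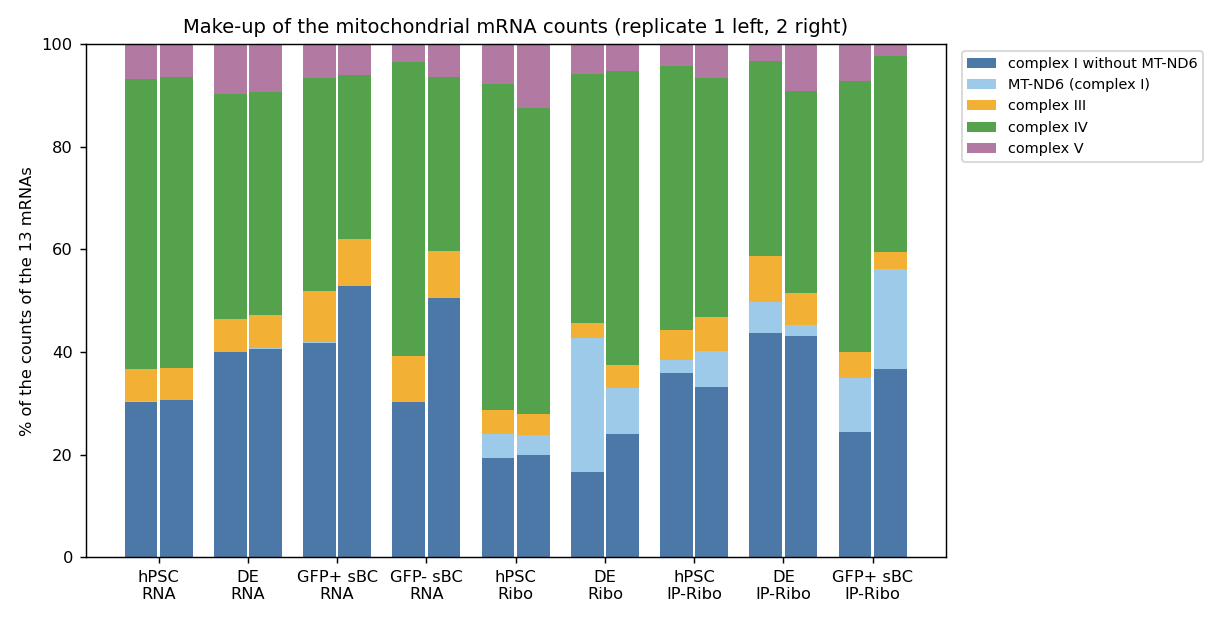
Share of the counts of the 13 mitochondrially encoded mRNAs by respiratory complex in 18 libraries, stacked to 100%, with MT-ND6 drawn apart from the rest of complex I. Complex IV holds 43.7% and 43.4% in DE RNA and 56.5% and 56.7% in hPSC RNA, and MT-ND6 is visible only in footprints.

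GFP+ sBC held more RNA of the mitochondrial mRNAs than hPSC. In the fit over all 8 RNA libraries, 5 of 13 were higher in GFP+ sBC and none was lower, beside 30.4% of 23321 genes called higher and 30.9% called lower (61.3% in all). The 5 were MT-ND3, MT-ND2, MT-ND5 and MT-ND6 of complex I and MT-CYB, the cytochrome b of complex III. All 13 log2 fold changes were positive, with a median of 1.97 beside 0.04 for all genes. By complex the medians were 2.55 for complex I, 2.69 for MT-CYB alone, 1.56 for complex IV and 2.22 for complex V.

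MT-ND3 had the highest log2 fold change. It had 434 and 415 CPM in GFP+ sBC, against 13.2 and 16.8 CPM in hPSC (4.32 ± 1.38, adjusted p = 0.0279). MT-ND2 had 5350 and 7130 CPM in GFP+ sBC, against 231 and 302 CPM in hPSC (4.04 ± 1.14, adjusted p = 0.017). MT-ND5 had 5180 and 3620 CPM in GFP+ sBC, against 230 and 287 CPM in hPSC (3.59 ± 0.87, adjusted p = 0.00883). For each of these complex I subunits both GFP+ libraries lay above both hPSC libraries by more than an order of magnitude. MT-CYB had 5290 and 3780 CPM in GFP+ sBC, against 452 and 539 CPM in hPSC (2.69 ± 0.86, adjusted p = 0.028). MT-ND6 had 51.5 and 14.4 CPM in GFP+ sBC, against 6.63 and 7.61 CPM in hPSC (1.72 ± 0.60, adjusted p = 0.0383). Its GFP+ libraries differed more from each other than those of any other mRNA.

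For the complex IV mRNAs both GFP+ libraries also lay above both hPSC libraries, but none passed the test. MT-CO1 had 13800 and 7760 CPM in GFP+ sBC, against 2020 and 2480 CPM in hPSC (1.76 ± 0.67, adjusted p = 0.0514). MT-CO3, with the lowest log2 fold change of the 13, had 4500 and 2630 CPM in GFP+ sBC, against 1390 and 1610 CPM in hPSC (0.75 ± 0.73, adjusted p = 0.395). Of the rRNAs left after depletion, MT-RNR2 had 56.0 and 51.4 CPM in GFP+ sBC, against 3.33 and 1.62 CPM in hPSC (3.94 ± 0.90, adjusted p = 0.00671). MT-RNR1 averaged 35.8 ± 1.73 CPM in GFP+ sBC and 0.979 ± 0.406 CPM in hPSC (SD, n = 2 each; 4.69 ± 0.68, adjusted p = 0.000743).

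The call of MT-RNR2 was lost without the second hPSC library (3.51, adjusted p = 0.0527). The number of calls rested on the spread that this fit shares across libraries, including the first GFP- sBC library, which is in neither group compared. Without that library, 13 of 13 mRNAs passed as higher in GFP+ sBC, with a median log2 fold change of 2.06, beside 72.6% of 24963 genes called, 37.1% higher and 35.5% lower. The 7 mRNAs and rRNAs called with it were all called the same way without it. MT-ND2 then had 4.14, MT-ND5 3.68, MT-CYB 2.79, MT-RNR1 4.79 and MT-RNR2 4.04 as log2 fold changes. MT-ND3 had 4.41 ± 0.17 (adjusted p = 3.46e-07), MT-CO1 1.86 ± 0.29 (adjusted p = 0.000746), MT-ND6 1.81 ± 0.53 (adjusted p = 0.0177) and MT-CO3 0.85 ± 0.27 (adjusted p = 0.0238). Leaving out 1 library of the groups compared gave 1 call without the first GFP+ sBC library, 2 without the second, 0 without the first hPSC library and 1 without the second. MT-ND6 had a log2 fold change of 0.58 without the first GFP+ sBC library.

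Set against DE, 7 of 13 mRNAs were higher in GFP+ sBC and none was lower, beside 60.7% of genes called, 29.9% higher and 30.9% lower. The 7 were MT-CO1, MT-CO2, MT-CYB, MT-ND1, MT-ND2, MT-ND5 and MT-ND6. The GFP+ libraries are the same as in the comparison with hPSC. MT-ND2 had the highest log2 fold change, with 5350 and 7130 CPM in GFP+ sBC, against 424 and 305 CPM in DE (3.57 ± 1.12, adjusted p = 0.026). MT-ND6 had the lowest, with 51.5 and 14.4 CPM in GFP+ sBC, against 7.58 and 6.55 CPM in DE (1.71 ± 0.60, adjusted p = 0.0393). MT-CO1 had 13800 and 7760 CPM in GFP+ sBC, against 1560 and 1150 CPM in DE (2.48 ± 0.69, adjusted p = 0.0162). MT-RNR2 had 56.0 and 51.4 CPM in GFP+ sBC, against 1.27 and 2.9 CPM in DE (4.17 ± 0.91, adjusted p = 0.00573). The median of the 13 was 2.26 beside 0 for all genes, and 13 of 13 passed without the first GFP- sBC library, with a median of 2.29, beside 73.0% of genes called, 35.5% higher and 37.5% lower. MT-ND2 then had 3.60, MT-ND6 1.74, MT-CO1 2.51 and MT-RNR2 4.20 as log2 fold changes. MT-ND6 fell short of the threshold without the first GFP+ sBC library, at 0.51 (adjusted p = 0.416), so 1 GFP+ library carried its value. Leaving out 1 library of the groups compared gave 0 calls without the first GFP+ sBC, the first DE or the second DE library and 3 without the second GFP+ sBC library. Nuclear-retained RNAs (MALAT1, NEAT1 and KCNQ1OT1) summed to 14300 and 9150 CPM in GFP+ sBC, against 1220 and 1250 CPM in DE and 568 and 561 CPM in hPSC, and dissociation stress genes to 1640 and 1030 CPM in GFP+ sBC, against 192 and 194 CPM in hPSC. Their part in the mitochondrial differences was not tested.

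Within sBC, the sort by insulin reporter gave no call among the mitochondrial genes in the main fit, which took no pairs. Calls with a replicate block differed and are given with the other settings below. Between GFP+ and GFP- sBC 0 of 13 mRNAs passed with edgeR (1 at an unadjusted p under 0.05, and 1, MT-ND6, by DESeq2), beside 2.43% of 19797 genes called, 0.0808% higher and 2.35% lower. MT-ND6 had 51.5 and 14.4 CPM in GFP+ sBC, against 5.18 and 11.9 CPM in GFP- sBC. It had the highest log2 fold change, 1.98 ± 0.66 (adjusted p = 0.227). MT-ND3 had the lowest, 0.85 ± 1.46 (adjusted p = 0.843), with 434 and 415 CPM in GFP+ sBC, against 9.06 and 479 CPM in GFP- sBC. MT-CO1 had 1.11 ± 0.71 (adjusted p = 0.623) and MT-RNR2 -0.31 ± 0.73 (adjusted p = 0.885).

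The GFP- libraries disagreed with each other. Over the 13 mRNAs the median fold between them was 15.7, against 1.18 to 1.82 between the 2 libraries of every other group in this series. The first library was lower for each of the 13 mRNAs and for both rRNAs. MT-RNR2 had 16.3 CPM in the first and 120 CPM in the second. Without the first GFP- library the median log2 fold change of the 13 was 0.17, and without the second it was 3.94. Without the second, far more genes passed in all, mitochondrial mRNAs among them. In the first GFP- library nuclear-retained RNAs summed to 5410 CPM and dissociation stress genes to 2460 CPM, against 7830 and 973 CPM in the second, and their part in the gap was not tested. The 4 mesenchyme markers, each at 1 CPM or more in the first library, summed to 558 CPM there and to 288 CPM in the second. Among them COL1A1 had 48.2 and 7.64 CPM, COL3A1 24.9 and 0.841 CPM and VIM 371 and 195 CPM, in the first and the second library. Duct and progenitor markers summed to 1630 and 1640 CPM, but CFTR had 461 and 1030 CPM and KRT19 869 and 367 CPM. The part of these markers in the gap was not tested either.

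In total footprints no mitochondrial mRNA was called between DE and hPSC with edgeR (0 of 13, 0 at an unadjusted p under 0.05, and 1 by DESeq2), beside 34.1% of 15454 genes, 17.2% higher and 16.9% lower. MT-ND6 had the highest log2 fold change, with 32.6 and 15.4 CPM in DE, against 6.28 and 6.1 CPM in hPSC (2.76 ± 1.06, adjusted p = 0.152). Both DE libraries lay above both hPSC libraries, and the first DE library was the one with a single noncoding gene at 25.1% of counts. Without it MT-ND6 had 1.03 ± 0.21 (adjusted p = 0.0174), and 2 mRNAs passed. Without the second DE library MT-ND6 had 3.54, and 4 mRNAs passed. MT-ND3 had the lowest value, -0.56 ± 0.35, with 0.829 and 3.17 CPM in DE, against 2.69 and 3.9 CPM in hPSC. MT-CO1 had 37.9 and 73.8 CPM in DE, against 58.5 and 63.9 CPM in hPSC (0.23 ± 0.20), with overlap. Its mean CPM differed in the opposite direction, with 55.8 in DE and 61.2 in hPSC.

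The rRNAs and tRNAs of total footprints differed between the stages. MT-RNR2 had 6440 and 14000 CPM in DE, against 30500 and 30600 CPM in hPSC, and fell by 1.25 ± 0.25 on the log2 scale (adjusted p = 0.0186). The call was lost when either hPSC library was left out (-1.30 and -1.24). MT-RNR1 had 1850 and 4660 CPM in DE, against 7430 and 4930 CPM in hPSC (-0.64 ± 0.26, adjusted p = 0.114). Of 21 tRNAs tested 8 were higher in DE and none was lower, with a median log2 fold change of 1.77. Over all genes 17.2% were called higher and 16.9% lower. MT-TN, the asparagine tRNA, had 45.2 and 76.0 CPM in DE, against 7.22 and 10.9 CPM in hPSC (3.15 ± 0.35, adjusted p = 0.00598). MT-TD, the aspartate tRNA, had 80.6 and 78.8 CPM in DE, against 1.39 and 5.0 CPM in hPSC, and missed the threshold at 5.22 ± 1.09 (adjusted p = 0.0501). The other tRNAs called were MT-TA (3.60), MT-TQ (2.99), MT-TS1 (2.86), MT-TE (1.88), MT-TH (1.77), MT-TS2 (1.47) and MT-TL1 (1.12), given as log2 fold changes. Of these, MT-TS2 had 3.02 and 10.6 CPM in DE, against 3.77 and 1.86 CPM in hPSC. MT-TL1 had 3.88 and 13.3 CPM in DE, against 4.13 and 4.85 CPM in hPSC, so both overlapped between the stages. The tRNA calls were not recomputed with a library left out. MT-TR was left out by the filter on low counts. MT-TQ, with 1.99 and 2.97 CPM in DE, against 0.179 and 0.644 CPM in hPSC, passed that filter only through DE.

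In FLAG footprints no mitochondrial mRNA was called between DE and hPSC with edgeR (0 of 11 tested, 0 at an unadjusted p under 0.05, and 0 by DESeq2), beside 22.3% of 16018 genes, 9.78% higher and 12.5% lower. MT-ATP8 and MT-ND4L, the smallest mRNAs, did not pass the filter on low counts in the FLAG comparisons. All 11 values were positive, with a median of 0.57. They ran from 0.10 ± 0.37 for MT-CO1, with 7.72 and 7.25 CPM in DE, against 5.79 and 3.68 CPM in hPSC, to 1.95 ± 0.97 for MT-ND3 (adjusted p = 0.189), with 0.454 and 0.604 CPM in DE, against 0.0486 and 0.13 CPM in hPSC. MT-ND6 had 0.36 ± 0.71. MT-RNR2 had 717 and 1200 CPM in DE, against 1830 and 911 CPM in hPSC (-1.08 ± 0.43, adjusted p = 0.117).

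The mitochondrial mRNAs had higher values in FLAG footprints of GFP+ sBC than in those of hPSC. Of the 11 tested 8 were higher and none was lower, beside 58.9% of genes called, 30.4% higher and 28.5% lower. The 8 included MT-CO1, MT-CO2 and MT-CO3 of complex IV and MT-ND2, MT-ND3, MT-ND4, MT-ND5 and MT-ND6 of complex I, and the median of the 11 was 2.16, beside -0.01 for all genes. MT-ND3 had 0.916 and 0.922 CPM in GFP+ sBC, against 0.0486 and 0.13 CPM in hPSC. It reached the filter on low counts only through GFP+ sBC, so the filter favoured its call in this direction. MT-ND6 had the highest log2 fold change, with 6.14 and 11.1 CPM in GFP+ sBC, against 0.389 and 0.822 CPM in hPSC (3.78 ± 0.69, adjusted p = 0.00261). MT-CO1 had 20.1 and 14.8 CPM in GFP+ sBC, against 5.79 and 3.68 CPM in hPSC (1.91 ± 0.38, adjusted p = 0.0038). MT-CYB had the lowest, with 2.98 and 1.84 CPM in GFP+ sBC, against 0.924 and 0.779 CPM in hPSC (1.53 ± 0.62, adjusted p = 0.0676). For all 3 the libraries of the groups did not overlap. Nuclear protein-coding genes took 54.6% and 62.8% of counts in the FLAG libraries of GFP+ sBC, against 90.3% and 90.4% in hPSC. No total footprints were made from sBC. More mitochondrial footprints and a less specific pull-down therefore cannot be told apart, here or in the other comparisons of these FLAG libraries. Duct and progenitor markers summed to 776 and 1080 CPM in these FLAG libraries, against 215 and 363 CPM in RNA of GFP+ sBC. The part of a different mix of cells was not tested. Leaving out 1 library gave 5 calls without either GFP+ sBC library, 4 without the first hPSC library and 2 without the second.

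The rRNAs had larger differences than the mRNAs in FLAG footprints of GFP+ sBC. MT-RNR1 had 15900 and 19600 CPM in GFP+ sBC, against 1310 and 1010 CPM in hPSC (3.93 ± 0.28, adjusted p = 3.69e-05). MT-RNR2 had 24800 and 20300 CPM in GFP+ sBC, against 1830 and 911 CPM in hPSC (4.05 ± 0.49, adjusted p = 0.000375). Of 10 tRNAs tested 2 were higher, MT-TS1 by 4.56 and MT-TT by 2.24 on the log2 scale. That is a smaller share than the 30.4% of all genes called higher. MT-TS1 had 4.81 and 4.08 CPM in GFP+ sBC, against 0.195 and 0.173 CPM in hPSC. MT-TT had 1.72 and 2.77 CPM in GFP+ sBC, against 0.486 and 0.433 CPM in hPSC. Both reached the filter on low counts only through GFP+ sBC, so the filter favoured calls in this direction. MT-TY, without a count in hPSC, was at least 22.3-fold higher (floor of 3 counts over the group), and MT-TK, without a count in GFP+ sBC, at least 6.23-fold lower. MT-TK had 42 counts in the first hPSC library and 8 in the second, and the bound without the first was 1.88-fold. MT-TY had 20 counts in the first GFP+ sBC library and 5 in the second, and the bound without the first was 9.59-fold.

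Set against DE in FLAG footprints, 4 of 11 mRNAs were higher in GFP+ sBC (MT-ND6, MT-CO1, MT-CO2 and MT-CO3) and none was lower, beside 52.6% of genes called, 27.8% higher and 24.8% lower. MT-ND6 had 6.14 and 11.1 CPM in GFP+ sBC, against 1.97 and 0.554 CPM in DE (3.42 ± 0.70, adjusted p = 0.00509). MT-CO1 had 20.1 and 14.8 CPM in GFP+ sBC, against 7.72 and 7.25 CPM in DE (1.81 ± 0.38, adjusted p = 0.00582). MT-ND4 had the lowest value, with 3.38 and 3.83 CPM in GFP+ sBC, against 5.0 and 2.82 CPM in DE (0.47 ± 0.49, adjusted p = 0.455), and overlapped. Its mean CPM differed in the opposite direction, with 3.61 in GFP+ sBC and 3.91 in DE, and fold changes are scaled differently from CPM. MT-RNR2 had 24800 and 20300 CPM in GFP+ sBC, against 717 and 1200 CPM in DE (5.13 ± 0.51, adjusted p = 0.000203). Of 10 tRNAs 4 were higher, and the median of the 11 mRNAs was 1.31, beside -0.03 for all genes. Without either DE library 2 mRNAs passed.

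Mitochondrial footprints were lower in the FLAG pull-down than in total footprints, while nuclear genes for the same organelle were not called. In hPSC 9 of 13 mRNAs were lower in IP-Ribo and none was higher, beside 1.15% of 16679 genes called, 1.06% lower and 0.0899% higher. In DE 5 of 13 were lower and none was higher, beside 0.863% of genes called, 0.803% lower and 0.0600% higher. All 13 log2 fold changes were negative in each stage, with medians of -2.82 in DE and -3.39 in hPSC, beside -0.01 for all genes in both. All 13 had an unadjusted p under 0.05 in both stages.

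MT-CO1 had 7.72 and 7.25 CPM in IP-Ribo, against 37.9 and 73.8 CPM in Ribo of DE (-3.71 ± 0.29, adjusted p = 0.00439). In hPSC it had 5.79 and 3.68 CPM in IP-Ribo, against 58.5 and 63.9 CPM in Ribo (-3.76 ± 0.29, adjusted p = 0.00387). MT-ND3 had the lowest log2 fold change in hPSC, with 0.0486 and 0.13 CPM in IP-Ribo, against 2.69 and 3.9 CPM in Ribo (-5.16 ± 0.58, adjusted p = 0.0124). In every one of these the IP-Ribo libraries lay below all Ribo libraries of the stage. MT-ND4 had the highest in hPSC, with 1.4 and 0.995 CPM in IP-Ribo, against 2.78 and 5.49 CPM in Ribo (-1.85 ± 0.46, adjusted p = 0.137). In DE MT-ND6 had the lowest, with 1.97 and 0.554 CPM in IP-Ribo, against 32.6 and 15.4 CPM in Ribo (-5.73 ± 1.13, adjusted p = 0.128). MT-ND2 had the highest in DE, with 2.42 and 3.57 CPM in IP-Ribo, against 3.06 and 6.34 CPM in Ribo (-1.40 ± 0.32, adjusted p = 0.118). In hPSC MT-ND6 had 0.389 and 0.822 CPM in IP-Ribo, against 6.28 and 6.1 CPM in Ribo (-3.39 ± 1.05, adjusted p = 0.254).

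Both rRNAs passed in both stages. MT-RNR2 had 717 and 1200 CPM in IP-Ribo, against 6440 and 14000 CPM in Ribo of DE (-4.18 ± 0.43, adjusted p = 0.00832), and 1830 and 911 CPM in IP-Ribo, against 30500 and 30600 CPM in Ribo of hPSC (-4.54 ± 0.44, adjusted p = 0.00928). MT-RNR1 had smaller differences, -1.75 ± 0.26 in DE (adjusted p = 0.0271) and -2.47 ± 0.26 in hPSC (adjusted p = 0.0109). Of 20 tRNAs tested 9 were lower in DE and 8 in hPSC, and none was higher. Over all genes 0.803% were called lower in DE and 1.06% in hPSC. MT-TV, the valine tRNA that lies between the rRNAs on the genome, had 39.7 and 27.4 CPM in IP-Ribo, against 26.8 and 99.6 CPM in Ribo of DE, and 19.1 and 14.1 CPM in IP-Ribo, against 63.5 and 94.4 CPM in Ribo of hPSC. MT-TY, listed at 0 in both hPSC IP-Ribo libraries, was at least 29.3-fold lower there.

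Of 78 nuclear respiratory chain subunits, 82 mitochondrial ribosomal proteins and 50 nuclear factors for mitochondrial gene expression, whose mRNAs are translated in the cytosol, none was called in either stage with edgeR. DESeq2 called 6, 4 and 2 in DE and 1, 1 and 0 in hPSC. At an unadjusted p under 0.05 there were 14, 17 and 13 in DE and 10, 11 and 3 in hPSC. Their median log2 fold changes were 0.13, 0.21 and -0.04 in DE and 0.08, 0.08 and 0.06 in hPSC. The number of mitochondrial mRNAs called varied with the libraries, while their median stayed between -3.15 and -2.44 in DE and between -3.52 and -3.25 in hPSC when any 1 library was left out. In DE it was 1 without either IP-Ribo library, 3 without the first Ribo library and 7 without the second. In hPSC it was 2 without the first IP-Ribo library, 1 without the second, 6 without the first Ribo library and 1 without the second. The difference between the stages was not called for any of the 13 (DE minus hPSC, 0 with edgeR and by DESeq2, 1 at an unadjusted p under 0.05, MT-ND3), beside 0.0120% of genes, 0.00600% in either direction. It ran from -2.34 ± 1.5 for MT-ND6 to 2.71 ± 0.76 for MT-ND3, with 0.05 ± 0.37 for MT-CO1 and 0.35 ± 0.54 for MT-RNR2.

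**Figure D4:**
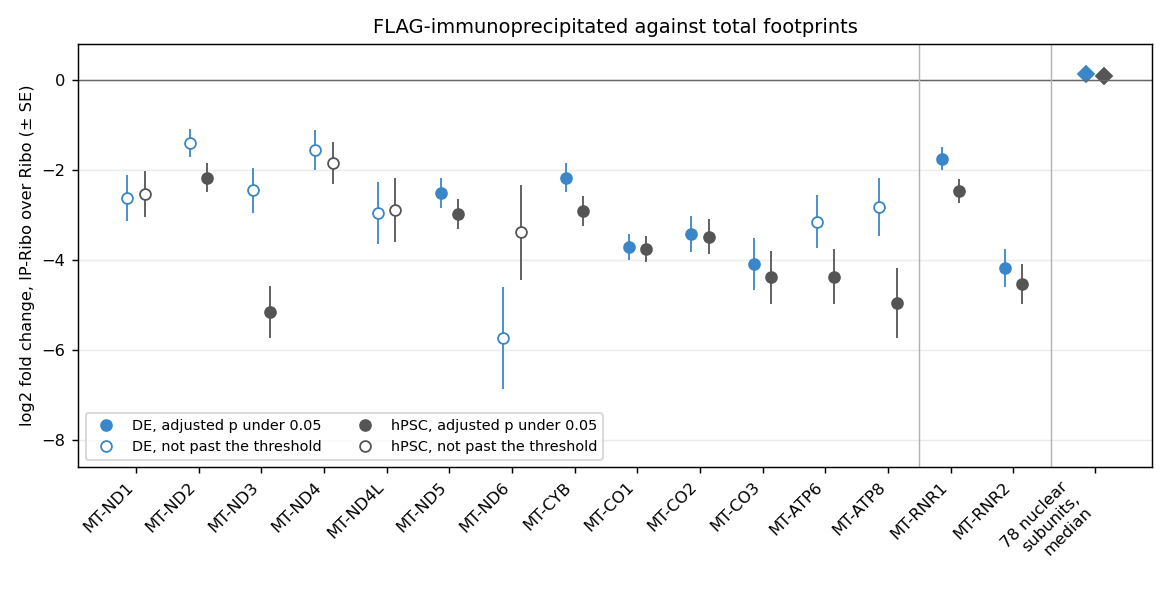
Log2 fold change of IP-Ribo over Ribo with its SE for the 13 mitochondrially encoded mRNAs and 2 rRNAs in DE and in hPSC, filled where the adjusted p is under 0.05, with diamonds for the median of 78 nuclear respiratory chain subunits. Every mitochondrial value is below 0, and the nuclear medians are 0.13 in DE and 0.08 in hPSC.

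Footprints were then set over RNA, as the change of the ratio of footprints to RNA between stages (an interaction of assay and stage in 1 fit of both kinds of library). Since mitochondrial mRNAs are read by the mitochondrial ribosome, the FLAG ratio for them is not a translational efficiency of cytosolic ribosomes. Between GFP+ sBC and hPSC, IP-Ribo over RNA was lower for 2 of 13 mRNAs, MT-ND2 and MT-ND5, and higher for none, beside 15.0% of 22210 genes called, 11.0% higher and 3.98% lower. The median of the 13 was -1.08, beside 0.07 for all genes. In the same ratio the duct and progenitor markers CFTR (6.39 ± 0.75), SPP1 (4.75 ± 0.58) and SOX9 (4.08 ± 0.57) were called higher, while KRT19 was not called (0.56 ± 0.43). Of the mesenchyme markers SPARC (3.47 ± 0.45) and COL1A1 (2.12 ± 0.53) were called higher, and VIM (0.52 ± 0.23) and COL3A1 (2.43 ± 2.52) were not called. CFTR had 202 and 380 CPM in IP-Ribo of GFP+ sBC, against 10 and 10.7 CPM in their RNA, and SPP1 had 91.3 and 53.6 CPM in IP-Ribo, against 3.39 and 1.46 CPM in RNA. Over all 4 duct and progenitor markers the sum was 776 and 1080 CPM in IP-Ribo of GFP+ sBC, against 215 and 363 CPM in their RNA. In RNA of GFP- sBC CFTR had 461 and 1030 CPM, SPP1 111 and 89.3 CPM and SPARC 114 and 84.8 CPM. SPARC had 55.8 and 93.1 CPM in IP-Ribo of GFP+ sBC, against 5.47 and 2.37 CPM in their RNA. SOX9, with 13.2 and 25.0 CPM in this IP-Ribo, lay nearer to GFP+ RNA (7.39 and 9.53 CPM) than to GFP- RNA (186 and 156 CPM). The parts of this difference between the assays and of a different mix of cells in the mitochondrial ratios below were not tested.

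MT-ND5 had 4.47 and 5.93 CPM in IP-Ribo of GFP+ sBC, against 1.9 and 0.995 CPM in hPSC, while its RNA had 5180 and 3620 CPM in GFP+ sBC, against 230 and 287 CPM in hPSC. Footprints thus differed less between the stages than RNA did, and the ratio fell by 1.99 ± 0.46 on the log2 scale (adjusted p = 0.0156). MT-ND2 had 2.61 and 8.17 CPM in IP-Ribo of GFP+ sBC, against 1.02 and 1.04 CPM in hPSC, and its ratio fell by 1.95 ± 0.55 (adjusted p = 0.0371). MT-ND6 had the highest value, 1.82 ± 0.91 (adjusted p = 0.226), and MT-ATP8, with 0 and 0.132 CPM in IP-Ribo of GFP+ sBC, the lowest, -2.88 ± 1.61 (adjusted p = 0.281). MT-CO1 had -0.11 ± 0.48 and MT-RNR2 -0.14 ± 0.68. The 2 calls became 0 without either the first hPSC RNA or the first hPSC IP-Ribo library, 1 without either GFP+ sBC RNA library, the second hPSC RNA or the second hPSC IP-Ribo library, and 3 without the first GFP+ sBC IP-Ribo library.

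Between DE and hPSC no mRNA was called for either ratio. For IP-Ribo over RNA the counts were 0 with edgeR, 6 at an unadjusted p under 0.05 and 1 by DESeq2, beside 0.167% of genes, 0.0991% higher and 0.0675% lower. All 13 values were positive, from 0.47 ± 0.62 for MT-ND3 to 2.15 ± 0.91 for MT-ATP8, with a median of 1.11, beside 0.16 for all genes. MT-CO1 had 1.11 ± 0.49, MT-ND6 0.50 ± 1.03 and MT-RNR2 -0.57 ± 0.70. For Ribo over RNA the counts were 0 with edgeR, 8 at an unadjusted p under 0.05 and 2 by DESeq2, beside 0.314% of 21681 genes, 0.240% higher and 0.0738% lower. Values ran from -2.28 ± 0.38 for MT-ND3 (adjusted p = 0.0701) to 2.87 ± 1.07 for MT-ND6 (adjusted p = 0.298), with 1.07 ± 0.30 for MT-CO1 and -0.90 ± 0.63 for MT-RNR2. MT-ND3, higher in DE RNA, had 0.829 and 3.17 CPM in Ribo of DE, against 2.69 and 3.9 CPM in hPSC. For Ribo over RNA the median of the 13 was 1.02. It was 0.23 without the first DE Ribo library and 0.95 without the second. In both of these fits more genes passed in all, mitochondrial mRNAs among them.

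Nuclear genes that act with the mitochondrial genome mostly had lower RNA in GFP+ sBC. Compared with hPSC, 53 of 78 nuclear respiratory chain subunits were lower in GFP+ sBC and none was higher, with a median log2 fold change of -0.99, beside -0.24 for nuclear protein-coding genes and 30.9% of all genes called lower. Of the mitochondrial ribosomal proteins 74 of 82 were lower and 1 was higher (median -1.41), and of the gene expression factors 29 of 50 were lower and 2 were higher (median -0.97). By complex, 22 of 37 subunits of complex I were lower, 2 of 4 of complex II, 8 of 9 of complex III, 9 of 11 of complex IV and 12 of 17 of complex V. In each complex that the mitochondrial genome contributes to, the median of the mitochondrial mRNAs was above 0 and that of the nuclear subunits below 0. Without the first GFP- sBC library 69 of 78 subunits, 77 of 82 ribosomal proteins and 33 of 50 factors were lower and 3, 1 and 6 were higher, beside 35.5% of genes lower and 37.1% higher. Every subunit, ribosomal protein and factor called with that library was called the same way without it. The subunits called lower numbered 26 without the first GFP+ sBC library, 38 without the second, 42 without the first hPSC library and 36 without the second. The ribosomal proteins called lower then numbered 50 to 62 and the factors 19 to 22.

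The largest decreases among the subunits were those of NDUFA4, a cytochrome c oxidase subunit (-3.03 ± 0.36, adjusted p = 0.000296), and UQCRH, the hinge protein of complex III (-2.56 ± 0.31, adjusted p = 0.000307). Among the ribosomal proteins MRPL11 (-3.22) and MRPS12 (-2.71) fell most, and MRPL53 rose by 0.51 on the log2 scale. Among the factors SLIRP, which binds and stabilises mitochondrial mRNAs, fell by 3.16 and TWNK, the helicase of mitochondrial DNA replication, fell by 3.12. MTERF2 rose by 1.22 and GFM1, an elongation factor of the mitochondrial ribosome, rose by 1.46. Without the first GFP- sBC library the log2 fold changes were -2.94 for NDUFA4, -2.47 for UQCRH, -3.12 for MRPL11, -2.62 for MRPS12, 0.61 for MRPL53, -3.07 for SLIRP, -3.02 for TWNK, 1.32 for MTERF2 and 1.55 for GFM1, all still called.

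Against DE the same lists had 44 of 78, 63 of 82 and 17 of 50 lower in GFP+ sBC RNA and 2, 0 and 3 higher, with medians of -0.81, -1.14 and -0.37, beside 30.9% of genes called lower and 29.9% higher. The 17 of 50 factors are close to that background. Without the first GFP- sBC library 65, 74 and 27 were lower and 5, 2 and 8 higher, beside 37.5% of genes lower and 35.5% higher. Without the first GFP+ sBC library 18, 37 and 10 were lower, without the second 28, 46 and 12, without the first DE library 27, 44 and 12 and without the second 23, 42 and 12. Between DE and hPSC 46 of 78 subunits were lower in DE RNA and 15 higher (median -0.18), beside 36.8% and 38.7% of all genes. ATP5MC1, which encodes the c subunit of ATP synthase, fell by 1.46 and SDHD, a membrane anchor of complex II, fell by 1.05, while ATP5F1E rose by 0.68. Of the ribosomal proteins 59 of 82 were lower and 8 higher, and of the factors 34 of 50 were lower and 7 higher. In the fit over all 8 RNA libraries 5 of 78 subunits were lower and none was higher. That fit called 6561 genes in all, against 15591 in the fit of DE and hPSC alone.

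FLAG footprints of GFP+ sBC showed the same signs against hPSC. In them 35 of 78 subunits, 63 of 82 ribosomal proteins and 28 of 50 factors were lower, and 6, 1 and 5 were higher, with medians of -0.57, -1.37 and -0.95, beside 28.5% of genes called lower and 30.4% higher. Without the first GFP+ sBC library 25, 54 and 20 were lower, without the second 21, 44 and 18, without the first hPSC library 26, 55 and 21 and without the second 23, 47 and 16. NDUFA4 fell by 3.59 ± 0.42 (adjusted p = 0.000308) and TFAM, which packages mitochondrial DNA and starts its transcription, fell by 2.65 ± 0.35 (adjusted p = 0.000499). POLG, the polymerase of mitochondrial DNA, rose by 1.18 and GFM1 by 2.26. Between DE and hPSC 20 of 78 subunits were lower in FLAG footprints and 24 of 78 in total footprints, with 0 and 3 higher. Over all genes 12.5% were lower and 9.78% higher in FLAG footprints, and 16.9% and 17.2% in total footprints. With any 1 library left out, the median log2 fold change of the subunits stayed between -0.65 and -0.4 in FLAG footprints. In total footprints it stayed between -0.58 and -0.36. The number of subunits called fell strongly in some of these fits, and so did the number of all genes called.

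**Figure D5:**
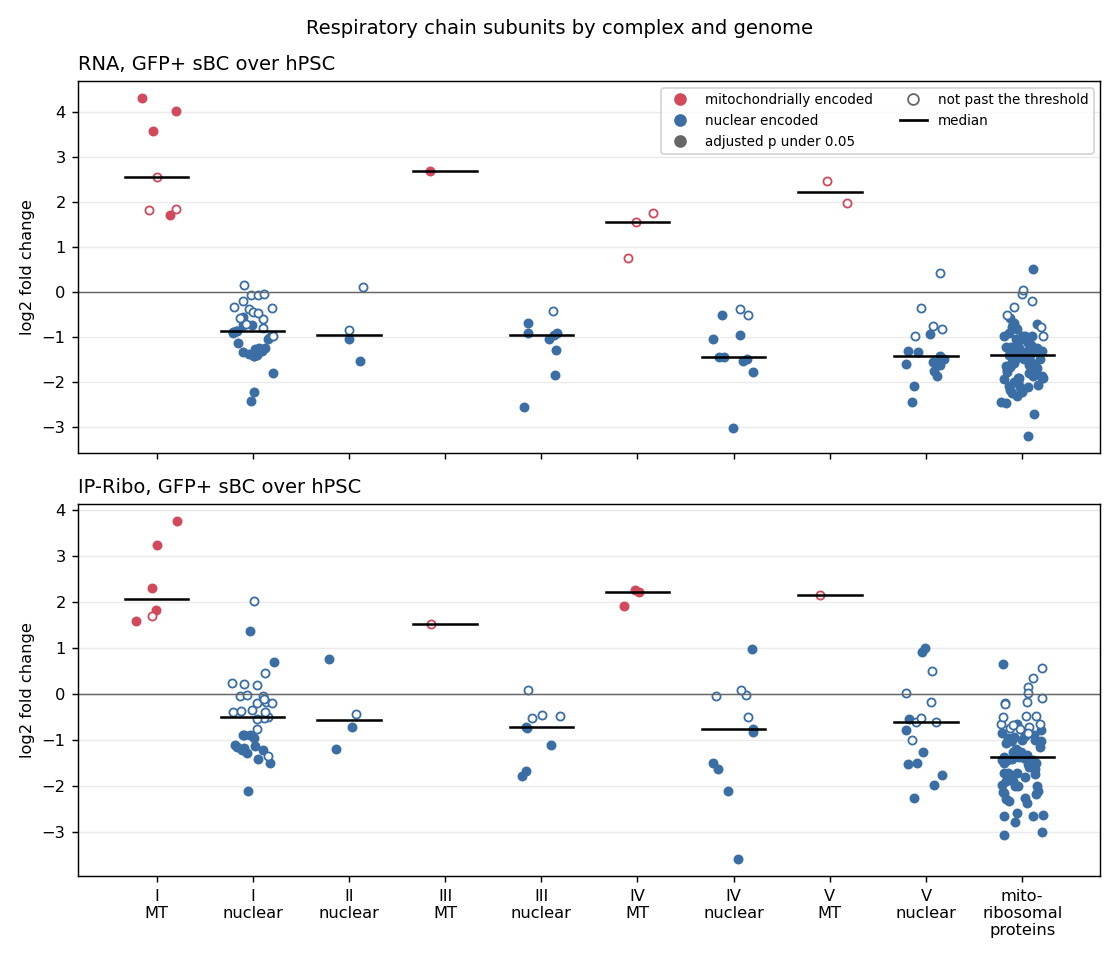
Log2 fold change of GFP+ sBC over hPSC in RNA (top) and IP-Ribo (bottom) for mitochondrially encoded and nuclear-encoded subunits by respiratory complex and for mitochondrial ribosomal proteins, with bars at the medians. In RNA the medians of mitochondrially encoded mRNAs run from 1.56 (complex IV) to 2.69 (complex III), and those of nuclear subunits from -1.46 (complex IV) to -0.88 (complex I).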

How the data were processed

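RNA-seq, total footprints and FLAG-immunoprecipitated footprints of 18 libraries were deposited by the authors as 1 table of expected counts per gene, that is estimated counts, of which 50.1% to 67.7% of the values above 0 in a library are not whole. The submitters' processing notes name Salmon, DESeq2, UMI-tools, cutadapt, Bowtie and GRCh38, with no versions or roles. The annotation release is not given in the sources used here. Per the labels' protocols, rRNA was removed with RNase H before RNA-seq and with riboPOOLs from footprints, and footprints were made with RNase I without cycloheximide, so reads of abundant rRNAs and short tRNAs depend on these steps.

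Of the identifiers 57030 (98.7%) were matched to gene names, and 19032 rows are nuclear protein-coding genes. CPM are counts scaled to a library's total, and per kilobase values use RefSeq lengths (GRCh38.p14). Fold changes use the TMM scaling of the test instead, so they can differ from the CPM beside them, also in sign. The test was edgeR's robust quasi-likelihood F test (version 4.0.16, R 4.3.3) on rounded estimated counts, after filterByExpr and TMM scaling, with Benjamini-Hochberg adjustment over all genes tested and a threshold of 0.05. Fits held 4 libraries for DE against hPSC in RNA, for the sort and for Ribo, all 8 RNA libraries where GFP+ sBC were set against an earlier stage, 6 for IP-Ribo, 8 for IP-Ribo against Ribo and both kinds of library for ratios over RNA, from which tRNAs were left out because RNA-seq lists them at 0. Standard errors come from these fits. Python with pandas 2.3.3, numpy 2.4.6, scipy 1.17.1 and matplotlib 3.10.9 computed shares and drew figures, and DESeq2 1.42.0 was an alternative. The procedure was tested on simulated data for comparisons of DE with hPSC only, with the same spread set for every gene and library. That test does not cover the comparisons of GFP+ sBC. Other settings were other normalizations, no filter on low counts, a replicate block and leaving out each library.

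The members, lists and markers were chosen with earlier results of these data known. Fold changes are named for the mRNA with the highest and lowest value in each comparison, for MT-ND6, MT-CO1 and MT-RNR2, and for the largest changes past the threshold in each nuclear list (mean log2 CPM of at least 3); other genes were named after their values were seen. Replicate numbers were not taken as pairs, since no label says that they mark a shared culture or day. Sequences of the members are not shown.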

Additional observations from a re-analysis of the deposited data

Results flagged for a closer look

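Of the results for single mitochondrial genes, 2 differed between assays by a test of the difference itself. The change from hPSC to GFP+ sBC was smaller in FLAG footprints than in RNA for MT-ND2, with a log2 difference of -1.95 ± 0.55 (adjusted p = 0.0371, edgeR quasi-likelihood F test), and for MT-ND5, with -1.99 ± 0.46 (adjusted p = 0.0156). MT-ND2 had 5350 and 7130 CPM in RNA of GFP+ sBC, against 231 and 302 CPM in hPSC. MT-ND5 had 5180 and 3620 CPM in RNA of GFP+ sBC, against 230 and 287 CPM in hPSC. FLAG footprints of MT-ND2 were at 2.61 and 8.17 CPM in GFP+ sBC, against 1.02 and 1.04 CPM in hPSC, and those of MT-ND5 at 4.47 and 5.93 CPM, against 1.9 and 0.995 CPM. The same difference was positive for the duct and progenitor markers CFTR (6.39 ± 0.75), SPP1 (4.75 ± 0.58) and SOX9 (4.08 ± 0.57), and KRT19 was not called (0.56 ± 0.43). CFTR had 202 and 380 CPM in IP-Ribo of GFP+ sBC, against 10 and 10.7 CPM in their RNA. SPP1 had 91.3 and 53.6 CPM in IP-Ribo, against 3.39 and 1.46 CPM in RNA. In RNA of GFP- sBC CFTR had 461 and 1030 CPM and SPP1 111 and 89.3 CPM. SOX9, with 13.2 and 25.0 CPM in IP-Ribo of GFP+ sBC, lay nearer to GFP+ RNA (7.39 and 9.53 CPM) than to GFP- RNA (186 and 156 CPM). The part of these markers, or of a different mix of cells in the assays, in the values of MT-ND2 and MT-ND5 was not tested. With 2 libraries per group, no group was large enough to be searched for a single outlying library.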

How the results depend on the processing

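FLAG footprints rest on 213 to 529 counts over all 13 mRNAs in a library. Of 89 counts of mitochondrial mRNAs past the threshold recomputed under other settings, 70 stayed within 1.5 times the main count and 19 did not. Of 381 values of single members, 352 kept direction and side of the threshold, 17 newly passed, 9 no longer passed and 3 reversed. Causes were not tested. Without a filter on low counts the count of mRNAs called was 1 for the sort, 1 for RNA of DE against hPSC, 2 and 4 for RNA of GFP+ sBC against hPSC and DE, 2 for Ribo of DE against hPSC, 12 for IP-Ribo against Ribo in DE and 1 for Ribo over RNA. With DESeq2 it was 1, 5, 10 and 10 for these RNA comparisons in the same order, 1 for Ribo of DE against hPSC, 9 for IP-Ribo against Ribo in DE, 11 in hPSC, 1 and 4 for IP-Ribo over RNA (DE and GFP+ sBC minus hPSC) and 2 for Ribo over RNA. With all 8 RNA libraries in the fit of DE against hPSC it was 0, beside 6561 genes called in all, against 15591 in the main fit. Scaling on nuclear protein-coding genes moved the median of all genes to 0.35 against hPSC and 0.26 against DE in GFP+ sBC RNA, and that of the mitochondrial mRNAs to 2.27 and 2.54.

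A replicate block gave 8 calls for the sort and 1 for RNA of DE against hPSC, and for RNA of GFP+ sBC 5 against hPSC and 6 against DE. In the sort the block called 1258 genes in all, against 481 in the main fit. It reversed MT-RNR2 in the sort to 0.27, and MT-RNR2 in Ribo of DE against hPSC no longer passed (adjusted p = 0.0617). Replicate differences of 2 groups of a comparison correlated at -0.49 to 0.3 (0.07 for the sort, 0.24 for hPSC RNA with hPSC IP-Ribo), and as no label ties the numbers to a culture or day they were not read as pairs. In the sort EGR1, ATF3, FOS and JUN were higher in the first library of both GFP+ and GFP- sBC. FOS had 371 and 113 CPM in GFP+ and 433 and 114 CPM in GFP- sBC. HSPA1A and HSPA1B were lower in the first GFP+ library and higher in the first GFP- library. Whether the numbers mark a shared sort was not tested. With crossed numbers, chosen after seeing the data, the calls were 0 for IP-Ribo of DE against hPSC, 1 for Ribo of DE against hPSC and 8 for IP-Ribo against Ribo in hPSC. In the difference of IP-Ribo over Ribo between DE and hPSC, MT-CO1 came to 0.00 with RLE factors and with DESeq2.

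As percent of protein-coding counts, mRNAs averaged 0.0269 in DE Ribo, 0.0178 in hPSC Ribo, 0.00342 in DE IP-Ribo and 0.00988 in GFP+ sBC IP-Ribo. On that base rRNAs averaged 0.00989 in GFP+ sBC RNA, 2.25 in DE Ribo, 4.54 in hPSC Ribo, 0.295 in DE IP-Ribo and 6.89 in GFP+ sBC IP-Ribo. The tRNAs averaged 0.0877 in DE Ribo, 0.0284 in hPSC Ribo, 0.00555 in DE IP-Ribo and 0.00964 in GFP+ sBC IP-Ribo. Counted per kilobase, complex I held 36.9% of the mRNAs in DE and 27.5% in hPSC RNA, and complex IV 40.1% in DE and 55.5% in hPSC.

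Leaving out 1 library at a time gave 0 to 12 mRNAs called for the sort, 5 to 7 for RNA of DE against hPSC, and 0 to 13 for RNA of GFP+ sBC against hPSC as against DE. It gave 2 to 5 for IP-Ribo of GFP+ sBC against hPSC, 2 to 4 against DE, 0 to 4 for Ribo of DE against hPSC, and for IP-Ribo against Ribo 1 to 7 in DE and 1 to 9 in hPSC. For the ratios it gave 0 to 1 for IP-Ribo over RNA of DE, 0 to 3 of GFP+ sBC and 0 to 5 for Ribo over RNA. For the sort, Ribo of DE against hPSC and Ribo over RNA, the number of all genes called also moved widely in these fits. Leaving out the first GFP- sBC library from the fits of GFP+ sBC against hPSC and DE, and the first DE Ribo library from that of IP-Ribo against Ribo in hPSC, was added after seeing the data. Signs changed within these ranges for the sort (MT-ND3 -0.14 to 5.51, MT-RNR2 -1.13 to 1.68), RNA of DE against hPSC (MT-ND6 -0.05 to 0.17, MT-RNR2 -0.88 to 0.41), IP-Ribo of DE against hPSC (MT-CO1 -0.23 to 0.48, MT-ND6 -0.66 to 1.12), Ribo of DE against hPSC (MT-CO1 -0.02 to 0.45) and the difference of IP-Ribo over Ribo (MT-CO1 -0.25 to 0.42, MT-RNR2 -0.09 to 0.95). They also changed for IP-Ribo over RNA in DE (MT-ND3 -0.34 to 1.06, MT-ND6 -0.71 to 1.06, MT-RNR2 -1.32 to 0.16) and in GFP+ sBC (MT-CO1 -0.73 to 0.41, MT-RNR2 -0.80 to 0.28).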

Other observations

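In total footprints, tRNAs of the strand that carries MT-ND6 made up most of the tRNAs called higher in DE than in hPSC, a split looked at after the values were seen and not tested. Of the 8 tRNAs annotated on that strand, 5 were called (MT-TA, MT-TE, MT-TN, MT-TQ and MT-TS1), and MT-TP, MT-TC and MT-TY were not. Of the 13 tested tRNAs of the other strand, 3 were called (MT-TH, MT-TL1 and MT-TS2), and MT-TL1 and MT-TS2 overlapped between the stages. Over all genes 17.2% were called higher. On the other strand MT-TD just missed the threshold, with 80.6 and 78.8 CPM in DE, against 1.39 and 5.0 CPM in hPSC. MT-TW there was not called, with 1.59 and 1.65 CPM in DE, against 0.269 and 0.72 CPM in hPSC. The split thus depends on the threshold. MT-TP had 22.2 and 4.45 CPM in DE, against 1.66 and 2.23 CPM in hPSC, and MT-TC had 4.11 and 8.82 CPM in DE, against 3.1 and 6.1 CPM in hPSC. MT-ND6 itself had 32.6 and 15.4 CPM in DE, against 6.28 and 6.1 CPM in hPSC.

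The tRNA counted most in footprints differed between libraries. MT-TM, the methionine tRNA, held 33.8% of tRNA counts in the first DE Ribo library and 35.7% in the first hPSC Ribo library. MT-TV held 21.7% in the second DE Ribo library and 38.7% in the second hPSC Ribo library. In FLAG footprints MT-TV held 75.5% and 63.6% in DE and 37.2% and 51.1% in hPSC. In those of GFP+ sBC MT-TE, the glutamate tRNA, held most in the first library (30.4%) and MT-TV in the second (42%).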
